A study of Mus musculus with 5 samples.

Results

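Fatty acid binding and oxidation genes were followed in neural stem and precursor cells from the subventricular zone, the niche beside the lateral ventricles of the adult mouse forebrain. The set held 10 genes chosen by name: the binding proteins Fabp3, Fabp5 and Fabp7, the carnitine shuttle enzymes Cpt1a, Cpt1c and Cpt2, the oxidation enzymes Acadm, Acadl and Hadha, and the nuclear receptor Ppara. All 10 are annotated as protein-coding, and the position given with each is that of the tables, on GRCm38. All 10 were found among the 46078 genes of the per-library tables, and all 10 had a mean of at least 1 TPM (a gene's share of the transcripts, corrected for its length, with 1 fixed total for all libraries), as did 13870 genes in all. The 2 groups were cells given PBS as a sham exposure and lysed 1 h (n = 2, replicates 1 and 2) or 8 h (n = 3, replicates 13, 14 and 15) later. Both groups came from unmutated C57BL/6 mice labelled female and 5 to 8 weeks old, and both had been expanded as spheres with EGF and FGF, then plated on poly-D-lysine. No group without the sham, and no other cell type, was among these libraries. The labels call the replicates biological, and the study's methods count 1 animal as 1 biological replicate of such cells, but neither ties a library to a mouse. The methods also give the mice as C57BL/6j and older than the labels do, and the labels were followed. The comparison asked how far the fatty acid genes differ between early and late control cells.

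Long-chain fatty acids are poorly soluble, and inside the cell they are carried by small binding proteins of the FABP family. After activation to acyl-CoA, they enter mitochondria through the carnitine shuttle, where carnitine palmitoyltransferase 1 on the outer membrane is the regulated step and is inhibited by malonyl-CoA, and are then shortened by rounds of beta oxidation. PPAR alpha, a nuclear receptor activated by fatty acids, induces many of these genes in liver, heart and muscle, and adult neural stem cells have been described as users of this pathway.

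PPAR and retinoid X receptor pairs bind copies of the half-site AGGTCA, and in the classic element 2 copies follow each other in the same direction with 1 base of any kind (N) between them. RefSeq windows on GRCm38.p6, from 250 bases before to 50 bases after a gene's start, were matched for 9 of the 10 genes (not Fabp5). AGGTCA on either strand was found in the windows of 4 of the 9, namely Fabp7, Cpt1a, Cpt1c and Acadm, against 16.3% of all 32851 windows. That spaced pair, searched on both strands and itself holding the half-site, was found in 0 of the 9 and in 0.0396% of all windows. The part before the start is printed for 3 genes on which the values turn: Fabp7, the most abundant member, Cpt1a, the shuttle's entry enzyme, and Acadl, an oxidation enzyme without a match. They lie at chr10:57784673-57784880 (plus strand), chr19:3323051-3323300 (plus strand) and chr1:66863310-66863559 (minus strand). Capitals mark TGACCT, the half-site read on the other strand.
Fabp7: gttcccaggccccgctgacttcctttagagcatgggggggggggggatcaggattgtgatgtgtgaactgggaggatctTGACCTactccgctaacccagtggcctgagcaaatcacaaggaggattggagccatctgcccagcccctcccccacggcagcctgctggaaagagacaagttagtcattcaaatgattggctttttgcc
Cpt1a: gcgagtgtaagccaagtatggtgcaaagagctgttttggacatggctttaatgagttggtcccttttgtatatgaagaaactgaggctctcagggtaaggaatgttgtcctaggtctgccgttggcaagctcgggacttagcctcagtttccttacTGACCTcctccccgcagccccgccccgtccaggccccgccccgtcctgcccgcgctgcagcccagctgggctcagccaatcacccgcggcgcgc
Acadl: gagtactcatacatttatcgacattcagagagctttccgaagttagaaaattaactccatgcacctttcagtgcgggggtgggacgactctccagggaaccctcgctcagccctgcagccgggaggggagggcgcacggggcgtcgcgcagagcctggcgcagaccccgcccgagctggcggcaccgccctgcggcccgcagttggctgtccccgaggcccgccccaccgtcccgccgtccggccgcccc
These matches describe letters in the windows and not sites of binding, which was not measured.

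The library identifiers in the labels fall into 2 number series, whose meaning the sources used here do not give, and libraries stood apart by them. By the names of the TPM tables, series 1 held both 1 h libraries and 8 h replicate 14, and series 2 held 8 h replicates 13 and 15. The count table puts the 8 h names in doubt (below). Against the label female, the 3 libraries of series 1 had 137.6 to 180.9 TPM over 4 Y-linked genes and at most 0.0611 TPM of Xist, whereas those of series 2 had 165.3 and 199.7 TPM of Xist and at most 0.0253 TPM of the Y-linked genes. Mitochondrially encoded genes took 10.7% to 11.1% of TPM in series 1 but 6.23% and 6.30% in series 2. Each of 9 precursor markers (Sox2, Nes and others) had a mean of at least 1 TPM, as did 5 of 5 astrocyte, 4 of 4 neuronal and 5 of 6 oligodendrocyte lineage markers. So did 2 of 5 endothelial markers (Flt1 and Kdr) and 1 of 4 ependymal markers (Foxj1), but none of 5 microglial and none of 4 adipocyte markers. Foxj1 had 22.4 and 26.7 TPM after 1 h, and 17.2, 15.4 and 14.4 TPM after 8 h. It was thus lower at 8 h without overlap, as were 9.43% of all genes. The summed level of the precursor markers was 3768 to 3801 TPM in series 1 and 4474 to 4831 TPM in series 2, and that of 5 astrocyte markers was 491.4 to 628.7 and 820.7 to 826.6 TPM. Of the precursor markers, 7 were higher in both series 2 libraries, Sox2 overlapped, and Nes was lower (690.1 and 698.7 against 735.5 to 784.4 TPM). Vim, the largest part of the precursor sum, had 2032 to 2112 TPM in series 1 and 2389 and 2552 TPM in series 2. Aldh1l1 was most of the astrocyte sum, with 454.9 to 580.6 TPM in series 1 and 724.3 and 668.3 TPM in series 2. Of the astrocyte markers, S100b overlapped between the series. Markers of the oligodendrocyte lineage (Olig1, Olig2 and others) summed to 1520 to 2392 TPM, with overlap between the series. That sum, mostly Olig1 and Olig2, hides opposite splits of single markers. Olig2 was higher in series 2 (630.7 and 674.8 against 428.9 to 506.7 TPM). Mbp was lower there (7.96 and 10.99 against 27.8 to 38.5 TPM), and the other markers of this lineage overlapped. Series, sex-linked genes and the markers that split with series cannot be told apart here, so each result is also given within or against the series.

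Fabp7 (chr10:57784881-57788450), the brain lipid-binding protein of radial glia and neural stem cells, dominated the set. Its level was 7679 and 8188 TPM after 1 h, and 9280.0, 7687 and 10076 TPM after 8 h (replicates 13, 14 and 15). It ranked 9 of 46078 genes by mean TPM, and took 94.5% to 96.1% of the summed TPM of the 10 genes of the FABP family in every library. The groups overlapped, since 8 h replicate 14 lay between the 1 h libraries, while both series 2 libraries lay above all the others. Group means were 7933 ± 359.5 TPM (SD, n = 2) at 1 h and 9014 ± 1216 TPM (SD, n = 3) at 8 h, a difference of 0.18 ± 0.16 (SE) on the log2(TPM + 1) scale (limma, adjusted p = 0.608). Errors of log2 differences are standard errors throughout.

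Fabp5 (chr3:10012548-10016607), the epidermal type, which also delivers ligands to nuclear receptors, was the runner-up of the family. It had 342.3 and 327.0 TPM after 1 h, and 535.5, 327.5 and 540.5 TPM after 8 h. The split was again between series 2 and the other libraries, and 8 h replicate 14 lay within the 1 h range. The log2 difference between times was 0.45 ± 0.23 (limma, adjusted p = 0.449), which became 0.68 with an adjusted p of 0.00500 without 8 h replicate 14, and -0.03 among the series 1 libraries alone. Relative to Fabp7 it remained small, since Fabp5 was 3.84% to 4.27% of the pair's TPM in series 1, and 5.46% and 5.09% in series 2.

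Fabp3 (chr4:130308595-130315463), the heart type, was close to the lower limit of the tested genes. Its level was 2.79 and 3.84 TPM after 1 h, and 4.11, 1.87 and 3.45 TPM after 8 h, so the groups overlapped and 8 h replicate 14 was the lowest. The difference between times was -0.09 ± 0.29 (limma, adjusted p = 0.891). Both protein-coding genes that GENCODE places on the opposite strand of Fabp3 (Gm10570 and Zcchc17) overlap it; the libraries were stranded. Its pseudogene Fabp3-ps1 reached 0.361 TPM, and the Fabp5 pseudogene Fabp5l2 reached 0.200 TPM, at most. The other 7 members of the family, among them the adipocyte Fabp4, the intestinal Fabp2 and the myelin Pmp2, were below 1 TPM in all libraries, and 4 were listed at 0 in all. The highest of these were Pmp2 with at most 0.362 TPM and Fabp2 with 0.106 TPM in 1 h replicate 1 and 0 elsewhere.

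**Figure D1:**
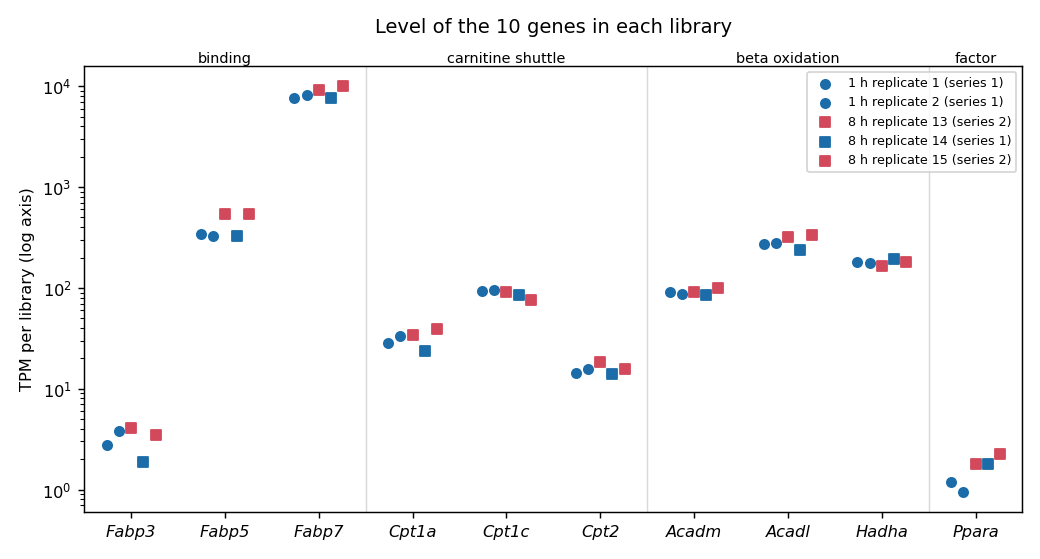
Level of the 10 genes in each of the 5 libraries, in TPM on a log axis, grouped by role; circles are 1 h and squares 8 h libraries, blue is identifier series 1 and red series 2, and each point is 1 library. Fabp7 lies between 7679 and 10076 TPM, above all others, and Ppara between 0.954 and 2.25 TPM, at the foot.

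Among the carnitine shuttle genes, the neuronal, endoplasmic reticulum form Cpt1c was more abundant than Cpt1a, the widely expressed mitochondrial form, in every library. Cpt1c (chr7:44959373-44974851) had 93.7 and 95.9 TPM after 1 h, and 91.6, 84.7 and 75.9 TPM after 8 h. It was the only member with all 8 h values below the 1 h values, by 0.18 ± 0.11 on the log2 scale (limma, adjusted p = 0.490). Over the 11 settings tried, the log2 difference was -0.29 to -0.10, and the lowest adjusted p was 0.294 (limma). With no overlap between times, only median-ratio scaling could have turned its sign, so the shared direction adds little. A long RNA on the opposite strand, 6530437J22Rik, overlaps the gene.

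Cpt1a (chr19:3323301-3385732), the gate of the mitochondrion, had 28.2 and 33.2 TPM after 1 h, and 34.2, 23.8 and 39.2 TPM after 8 h. Here 8 h replicate 14 was the lowest library and 8 h replicates 13 and 15 the highest, so that the groups overlapped and the difference between times was 0.05 ± 0.22 (limma, adjusted p = 0.921). The ratio of Cpt1c to Cpt1a was 3.32 and 2.89 at 1 h, and 2.68, 3.56 and 1.94 at 8 h. Cpt1c thus made up 63.5% to 75.3% of the summed TPM of the 3 CPT1 genes. The muscle form Cpt1b, which is no member, had 2.496 and 0.549 TPM after 1 h, and 3.38, 4.01 and 4.36 TPM after 8 h. Its groups did not overlap, with a time difference of 1.07 ± 0.36 and an unadjusted p of 0.0236 that did not pass over all genes (limma, adjusted p = 0.369).

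Cpt2 (chr4:107903981-107923610), which hands the acyl group back to CoA inside the mitochondrion, was the lowest of the shuttle members. It had 14.4 and 15.8 TPM after 1 h, and 18.6, 13.9 and 15.7 TPM after 8 h, with overlap in both groupings. The difference between times was 0.08 ± 0.16 (limma, adjusted p = 0.818).

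The beta oxidation enzymes were expressed above the shuttle's mitochondrial members in every library. Acadl (chr1:66830839-66863277), the long-chain acyl-CoA dehydrogenase, had 274.2 and 278.5 TPM after 1 h, and 322.5, 238.9 and 338.5 TPM after 8 h. As for Cpt1a, 8 h replicate 14 was the lowest and both series 2 libraries were the highest, and the difference between times was 0.10 ± 0.17 (limma, adjusted p = 0.770). Acadm (chr3:153922357-153944632), the medium-chain enzyme, had 91.1 and 86.3 TPM after 1 h, and 91.6, 84.7 and 98.9 TPM after 8 h, with a difference of 0.05 ± 0.10 (limma, adjusted p = 0.836). Acadl was 2.82 to 3.52 times Acadm in TPM. A same-strand processed pseudogene, Gm15793, overlaps Acadl.

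Hadha (chr5:30118304-30155162), the alpha subunit of the trifunctional protein that performs the later steps on long chains, had the smallest difference between times. Its level was 182.6 and 177.2 TPM after 1 h, and 166.0, 194.1 and 180.3 TPM after 8 h, with a log2 difference of -0.00092 ± 0.10 (limma, adjusted p = 0.998). The 95% confidence interval of that difference ran from -0.25 to 0.25. Hadhb encodes the partner subunit of the same complex, yet the ratio of Hadha to Hadhb was 1.07 and 0.976 at 1 h, 1.14 in 8 h replicate 14, and 0.755 and 0.771 in 8 h replicates 13 and 15, so the libraries of series 2 were both below those of series 1. Garem2 overlaps Hadha on the opposite strand.

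Ppara (chr15:85734983-85802819), the fatty acid-sensing receptor, was the least abundant member, and the only one with all 8 h values above the 1 h values. It had 1.18 and 0.954 TPM after 1 h, and 1.81, 1.79 and 2.25 TPM after 8 h, and here 8 h replicate 14 lay beside the other 8 h libraries. Means were 1.07 ± 0.162 TPM (SD, n = 2) and 1.95 ± 0.258 TPM (SD, n = 3). The log2(TPM + 1) difference was 0.51 ± 0.19 with a 95% confidence interval of 0.05 to 0.97, with an unadjusted p of 0.0338 that did not pass over all genes (limma, adjusted p = 0.385). Over the 11 settings the difference was 0.43 to 0.81, with a lowest adjusted p of 0.0992 (limma), and it was 0.44 among the libraries of series 1 alone. With no overlap between times, only median-ratio scaling could have turned its sign, so the shared direction adds little.

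From the highest to the lowest mean level per length, the order was Fabp7, Fabp5, Acadl, Hadha, Acadm, Cpt1c, Cpt1a, Cpt2, Fabp3 and Ppara. Fabp7 was 20.7 times Fabp5 by mean TPM. Between neighbours, the ranges over the 5 libraries overlapped for Fabp5 and Acadl, for Acadm and Cpt1c, and for Fabp3 and Ppara. Only Acadm and Cpt1c changed places within libraries, with Acadm the higher in 3 of 5 and a ratio of means of 1.02. No member ranged over more than 0.83 on the log2(TPM + 1) scale, so no genes with a like pattern were looked for.

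Read together, 0 of the 10 members were called between 8 h and 1 h, a call being an adjusted p of at most 0.05 with an absolute log2 difference above 1 (limma). The background was 0.0433% of the 13870 genes tested, so that hardly any gene was called either. An unadjusted p under 0.05 was found for 1 member, Ppara, beside 12.3% of all genes. Groups did not overlap for 2 members (33.1% of all genes), 1 with higher 8 h values (Ppara, beside 23.7% of all genes) and 1 member with lower values (Cpt1c, beside 9.43%). Log2 differences were above 0 for 7 of 10 members and for 65.9% of all genes, with medians of 0.06 and 0.10. The 7 to 3 split turned to 3 to 7 with libraries scaled by median ratios, where the median of all genes was -0.00 in place of 0.10, and to 2 to 8 with series as a term. Ppara, Fabp5 and Fabp7 lay above the shift of all genes, by 0.41, 0.34 and 0.07.

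**Figure D2:**
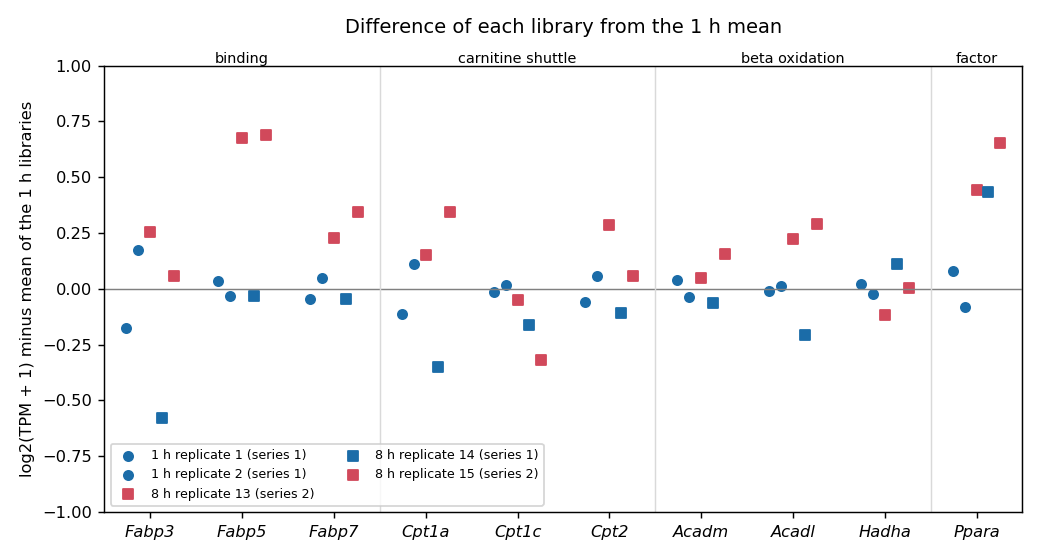
Difference of each library from the mean of both 1 h libraries, in log2(TPM + 1), for the 10 genes; circles are 1 h and squares 8 h libraries, blue is series 1 and red series 2. The series 2 squares of Fabp5 lie near 0.68 with 8 h replicate 14 at -0.03, whereas all 3 squares of Ppara lie at 0.43 or above.

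With time as a term, series 2 against series 1 was above 0 for 8 of 10 members (64.3% of all genes), with a median log2 difference of 0.31 beside 0.11 over all genes. Both 1 h libraries are of series 1. Each series difference, here and below, therefore sets 8 h replicates 13 and 15 against 8 h replicate 14 alone. Each thus rests on that 1 library, and the 1 h libraries bear only on the errors. For 5 members the unadjusted p was under 0.05 (limma; 26.4% of all genes). Of the members, 0 were called (4.02% of all genes), and 2, Fabp5 and Acadl, had an adjusted p of at most 0.05 with no fold threshold (9.09%, or 7.44% in the higher direction). For this comparison, leaving out the fold threshold was chosen after the data were seen. Fabp5 was higher by 0.71 ± 0.09 (limma, adjusted p = 0.0130), and Acadl by 0.47 ± 0.09 (limma, adjusted p = 0.0403). Neither passed without 8 h replicate 13 or without 8 h replicate 15, nor with all genes kept, and Acadl did not with median-ratio scaling; the adjusted p ranged from 0.00797 to 0.0797 for Fabp5 and from 0.0384 to 0.151 for Acadl.

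The other binding and shuttle members with positive differences did not pass. Fabp3 had 0.73 ± 0.23 (limma, adjusted p = 0.114), Cpt1a 0.60 ± 0.16 (adjusted p = 0.0719), and Fabp7 0.33 ± 0.10 (adjusted p = 0.0908). The adjusted p of Cpt1a lay on either side of 0.05 over the settings (limma). It was under 0.05 only without 1 h replicate 1, without 1 h replicate 2 and in the 8 h libraries alone. The difference stayed at 0.60 in all of these, since leaving out 1 h libraries cannot change it and alters only its error. Cpt2, Acadm and Ppara were at 0.28, 0.17 and 0.11, and Cpt1c and Hadha at -0.02 and -0.17, with adjusted p-values of 0.316 to 0.943 (limma). Values did not overlap between the series for 6 members, all higher in series 2 (Fabp5, Fabp7, Cpt1a, Acadm, Acadl and Ppara), beside 39.8% of all genes, or 53.3% in either direction. Markers moved in part with this grouping: 7 of 9 precursor markers and 4 of 5 astrocyte markers were higher in both series 2 libraries, and 1 precursor marker, Nes, was lower. Of 4 neuronal markers, 2 (Tubb3 and Syt1) were lower in both series 2 libraries, and Dcx and Rbfox3 overlapped. The sum of all 4 was 51.6 to 57.8 TPM in series 1 and 30.2 and 30.6 TPM in series 2. Of 6 oligodendrocyte lineage markers, Olig2 was higher and Mbp lower in both series 2 libraries, and the rest overlapped. In bulk RNA, a different share of cells of a type and a different RNA content per cell cannot be told apart, and the part of these markers in the result was not tested.

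With series as a term, 8 of the 10 time differences were below 0, with a median of -0.09 beside 0.01 over all genes. The exceptions were Ppara and Hadha. Ppara had 0.44 ± 0.23 (limma, adjusted p = 0.653) and Hadha 0.11 ± 0.10 (adjusted p = 0.803). Fabp3 had -0.58 ± 0.23 (limma, unadjusted p = 0.0486, adjusted p = 0.547), Cpt1a -0.35 ± 0.16 (adjusted p = 0.583) and Acadl -0.21 ± 0.09 (adjusted p = 0.589). With only 8 h replicate 14 in this series at 8 h, each of these rests on 1 library, which is assumed to vary like the others.

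**Figure D3:**
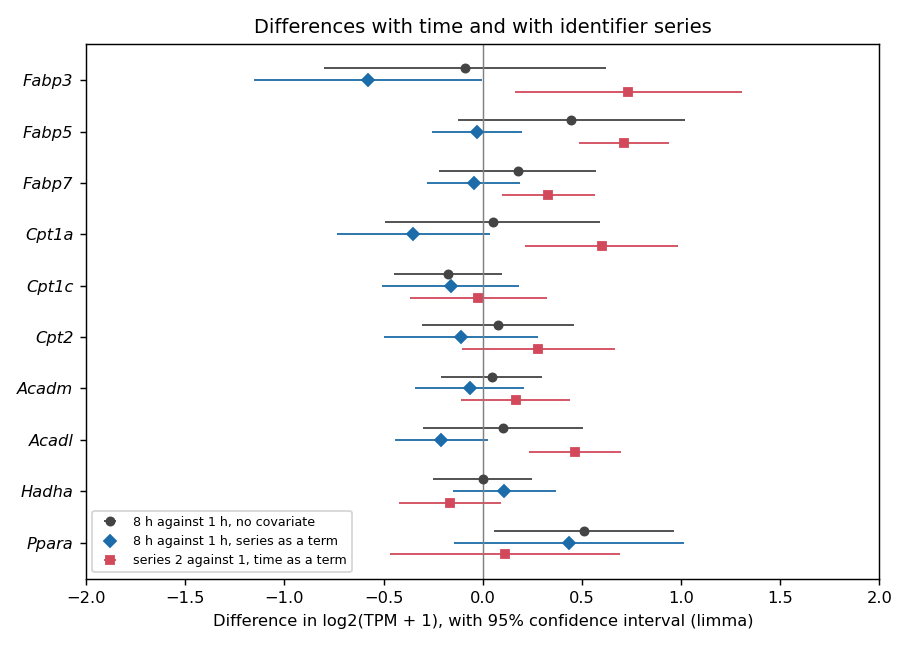
Differences of the 10 genes in log2(TPM + 1) with 95% confidence intervals from limma: 8 h against 1 h with no covariate (black circles), the same with series as a term (blue diamonds), and series 2 against series 1 with time as a term (red squares). The red interval of Fabp5 runs from 0.49 to 0.94 and that of Acadl from 0.23 to 0.70, while the black interval of Ppara runs from 0.05 to 0.97.

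The count table held 7 of the 10 members (not Fabp3, Cpt1c or Acadm) and gave no call among them (0 of 7, beside 0.0% of 7590 genes; edgeR). An unadjusted p under 0.05 was found for 0 members and for 199 genes (2.62%), and DESeq2 called 0 genes with 227 at that p. Ppara had 33 and 35 counts at 1 h and 61, 36 and 76 in the columns named 8 h replicates 13, 14 and 15, with exact 95% Poisson intervals of 22.7 to 46.3, 24.4 to 48.7, 46.7 to 78.4, 25.2 to 49.8 and 59.9 to 95.1. The intervals cover counting error only and are not corrected for the differing column totals. That of the lowest 8 h column, named replicate 14, overlaps those of both 1 h columns. That column matched no TPM table closely (below), so it cannot be set beside the TPM value of replicate 14. The log2 difference of Ppara was 0.55 ± 0.38 (edgeR, adjusted p = 0.966).

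Fabp7 had 61424 and 78556 counts at 1 h, and 79157, 42199 and 90599 at 8 h, a log2 difference of -0.20 ± 0.22 (edgeR, adjusted p = 0.966), opposite in sign to that from TPM. The 8 h columns did not match the TPM tables of the same names. Of 6860 genes compared relative to the first 1 h library, 78.3% of the values in the column 8 h replicate 13 were within 0.1 log2 of the TPM table of replicate 14 and 26.1% of its own table. The column 8 h replicate 15 matched the table of replicate 13 (76.9%), and the column 8 h replicate 14 matched none above 38.2%. The sources used here do not say which names hold, so values of single libraries above are those of the TPM tables. The series of each TPM table was also taken from its name. Each series result from TPM therefore depends on those names being right. The counts of Fabp5, Cpt1a, Cpt2, Acadl and Hadha gave log2 differences of 0.08, -0.25, 0.22, -0.12 and -0.09 (edgeR), with adjusted p-values of 0.966 to 0.979. Differences were above 0 for 3 of the 7 and for 51.7% of all genes in the table.

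The rest of the pathway was read from 78 further genes in 8 lists, of which 61 were tested. Between times, 0 of the 61 were called, 4 had an unadjusted p under 0.05 (Scp2, Cpt1b, Slc27a3 and Ppargc1b, all higher at 8 h; limma; 12.3% of all genes), and 47 had positive and 14 negative differences, with a median of 0.18. Between series, 48 were positive, 11 had an adjusted p of at most 0.05 and all of these were higher in series 2 (7.44% of all genes in that direction), and 2 were called (4.02%). Their median was 0.28 beside 0.11 over all genes. Median-ratio scaling left 38 of the 61 positive and 9 at that adjusted p (limma), with a median of 0.16 beside -0.01 over all genes. With no filter, 0 of 72 were at that adjusted p. Without 8 h replicate 13 the count at that adjusted p was 1, and without 8 h replicate 15 it was 0.

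Uptake and activation genes had positive series differences for 12 of 12 tested (64.3% of all genes) and an adjusted p of at most 0.05 for 5 (7.44% of all genes in that direction). Their median was 0.52, beside 0.11 over all genes. Acsf2, an acyl-CoA synthetase, was called: it had 5.34 and 6.83 TPM after 1 h, and 21.6, 4.05 and 20.8 TPM after 8 h. Its series difference was 2.14 ± 0.18 (limma, adjusted p = 0.00529, range 0.00122 to 0.0797 over 9 settings). The fatty acid transporter Slc27a6 was called too, with 2.25 and 2.29 TPM after 1 h and 6.54, 1.48 and 4.63 TPM after 8 h (1.39 ± 0.24, limma, adjusted p = 0.0260, range 0.0170 to 0.130). Dbi, which encodes the acyl-CoA binding protein, was the most abundant gene of the lists. It had 2223 and 2021 TPM after 1 h and 3541, 2144 and 3455 TPM after 8 h (0.71 ± 0.10, limma, adjusted p = 0.0143, and 0.134 with no filter). Acsbg1, the synthetase of glia, had 342.5 and 379.1 TPM after 1 h and 521.2, 326.7 and 445.6 TPM after 8 h (0.56 ± 0.13, adjusted p = 0.0567). Acsl5 (0.76, limma, adjusted p = 0.0210) passed and Slc27a3 (0.26, adjusted p = 0.375) did not, and Acsl3 (0.99, adjusted p = 0.0160) is named after its values were seen.

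Genes that act beside the members in mitochondria and peroxisomes were less uniform. In the shuttle list, Crot, the peroxisomal octanoyltransferase, had 70.6 and 71.9 TPM after 1 h and 101.1, 68.5 and 101.3 TPM after 8 h (series difference 0.56 ± 0.10, limma, adjusted p = 0.0311), while the carnitine carrier Slc25a20 kept to 44.3 to 46.9 TPM in all libraries. Of 16 mitochondrial beta oxidation genes, 11 were positive (64.3% of all genes) and 5 negative between series and 1 passed (9.09% of all genes), Decr1 (0.88, limma, adjusted p = 0.0253), named after its values were seen. Hadhb and Hadh, the most abundant of them, had differences of 0.41 and 0.39 (limma, adjusted p = 0.0697 and 0.0650), and Acadsb and Echs1 0.01 and 0.11. Peroxisomal genes were split 5 to 5 with 0 passing (limma; 9.09% of all genes): Hsd17b4 had 170.2 to 188.4 TPM, and Abcd3, Scp2 and Acox3 had series differences of -0.14, 0.25 and -0.01. Scp2, a sterol carrier protein and thiolase, had 62.2 and 57.5 TPM after 1 h and 83.9, 71.4 and 86.8 TPM after 8 h, without overlap, with a time difference of 0.42 ± 0.12 and an unadjusted p of 0.0127 (limma, adjusted p = 0.328).

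The PPAR list had 10 of 10 tested genes positive between series (64.3% of all genes) and 1 with an adjusted p of at most 0.05 (9.09%). That gene was Acot1, an acyl-CoA thioesterase and a known PPAR alpha target in liver, with 69.7 and 77.6 TPM after 1 h and 106.5, 58.5 and 121.9 TPM after 8 h (0.95 ± 0.13, limma, adjusted p = 0.0157). The retinoid X receptor Rxrb had 25.8 to 34.8 TPM, well above Ppara. Of the 10 genes, 2 had higher values at 8 h without overlap (23.7% of all genes), the coactivators Ppargc1a and Ppargc1b, and they are named here for that. Ppargc1b had 0.695 and 0.729 TPM after 1 h and 1.71, 1.12 and 2.14 TPM after 8 h, and Ppargc1a 22.7 and 20.1 against 29.3, 23.3 and 27.7 TPM. Their time differences of 0.61 and 0.31 did not pass (limma, adjusted p = 0.390 and 0.422).

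Synthesis of fatty acids, whose intermediate malonyl-CoA inhibits carnitine palmitoyltransferase 1, was represented by 4 tested genes, of which 4 were positive between series (64.3% of all genes) and 2 passed (9.09%). Fasn, the fatty acid synthase, had 122.9 and 153.6 TPM after 1 h and 262.1, 131.8 and 249.5 TPM after 8 h (0.95 ± 0.15, limma, adjusted p = 0.0216, and 0.129 with no filter). Acaca, which makes malonyl-CoA, had a difference of 0.57 (limma, adjusted p = 0.0519), Mlycd, which degrades it, 0.07 (adjusted p = 0.815), and Thrsp, named after its values were seen, 0.90 (adjusted p = 0.0281). Among 4 ketone genes, 1 passed (9.09% of all genes). It was Oxct1, the enzyme that activates acetoacetate for use as fuel, with 0.49 ± 0.10 (limma, adjusted p = 0.0410). Acat1 at 0.37 and Bdh1 at 0.16 did not pass.

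**Figure D4:**
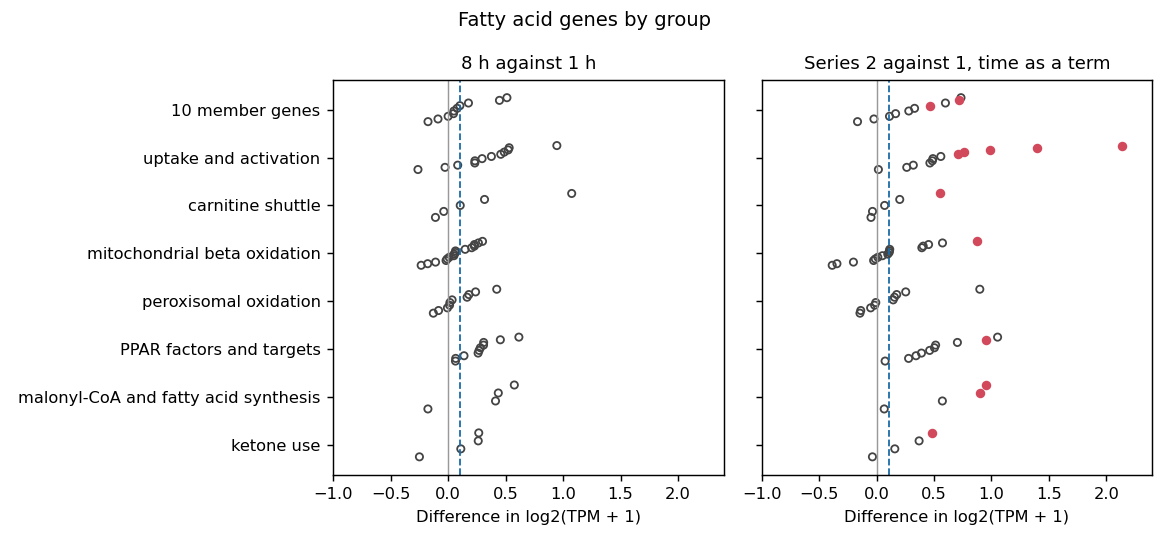
Log2(TPM + 1) differences of the 10 members and of the tested genes of the other lists, 8 h against 1 h on the left and series 2 against series 1 with time as a term on the right; each point is 1 gene, filled where the adjusted p is at most 0.05 (limma), and the dashed line is the median of all genes tested (0.10 and 0.11). On the left 0 points are filled, and on the right the 2 filled members are Fabp5 at 0.71 and Acadl at 0.47.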

How the data were processed

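RNA-seq libraries were made by the authors from poly-A selected RNA with a stranded kit, demultiplexed with bcl2fastq 2.19.1.403 per the submitters' processing notes, aligned to GRCm38 with STAR through nf-core/rnaseq, and counted over genes with featureCounts. The authors deposited, for each of the 5 libraries, a table of TPM per gene, in the layout of StringTie's abundance output, whose version the sources used here do not give. TPM values were added up per gene identifier (15 to 20 repeated entries a table). The deposited read counts per gene, not normalized and described as filtered by a filter that no source used here states, covered 7599 genes that held 51.3% to 56.7% of a library's TPM, with column totals of 13988166 to 18572154. These totals are not the full depth. The same tables hold FPKM and mean per-base coverage as deposited by the authors, from which only a relative depth was taken: coverage divided by FPKM was 3.68 to 4.76 over the libraries. Columns were assigned by name; 0 were left over, and 0 entries lacked a gene. Sex-linked genes were not in the count table used here, so the columns could not be checked by them.

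For TPM, limma 3.58.1 with an intensity trend was run on log2(TPM + 1) for genes with a mean of at least 1 TPM, which understates fold changes of low genes. Counts were tested with edgeR 4.0.16 (quasi-likelihood, TMM, filterByExpr) in R 4.3.3. P-values are two-sided and Benjamini-Hochberg adjusted over all genes tested. Alternatives were a pseudocount of 0.1, no filter, median-ratio scaling, series as a term or series 1 alone, each library left out, and, for counts, DESeq2 1.42.0, its size factors in edgeR and no filter. Scripts were tested on simulated data. The members and the other lists were chosen with earlier results of these data known. The text names all members, and of the other genes those called, and in each list the 2 of highest mean TPM and the 2 with the largest difference among those not overlapping between times; others are marked, and 1 gene under this rule is not reported here. The authors named DESeq2 in their processing notes, and comparisons of their own were not used. Coordinates and symbols were those of the tables; gene types and overlaps came from GENCODE.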

Additional observations from a re-analysis of the deposited data

How the results depend on the processing

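With limma on TPM, 6 genes were called between times, 0 with no filter (2371 at an unadjusted p under 0.05), 19 with series as a term, and 0 to 573 with 1 library left out, the highest without 8 h replicate 14; settings with 0 calls had 668 to 850 genes at an unadjusted p under 0.05. No member was called in any setting. Of 100 member values under alternatives, 27 turned sign. Median-ratio scaling gave Cpt1a -0.062, Cpt2 -0.031, Acadm -0.068 and Acadl -0.013. Series as a term and series 1 alone gave Fabp5 -0.031, Fabp7 -0.045, Cpt1a -0.35, Cpt2 -0.11, Acadm -0.065, Acadl -0.21 and Hadha 0.11. Leaving out 1 library gave ranges of -0.26 to 0.16 for Fabp3, -0.10 to 0.25 for Cpt1a, -0.027 to 0.17 for Cpt2, -0.0092 to 0.10 for Acadm and -0.056 to 0.056 for Hadha. With edgeR on counts, 0 genes were called (199 at an unadjusted p under 0.05; DESeq2 0 and 227) but 145 in the columns of series 1 alone, where Fabp7 was at -0.69 (adjusted p = 0.00382), under the fold threshold. The 8 h arm of that fit is 1 column, named replicate 14, assumed to vary like the others, and since it matched no TPM table closely its series is uncertain. The column named 8 h replicate 13, of series 2 by name, matched the TPM table of replicate 14, of series 1. The series term in the count fits is therefore uncertain too. Fabp5 was -0.30 there and with series as a term, and with 1 column left out Fabp5 ranged from -0.19 to 0.24 and Fabp7 from -0.34 to 0.0054. Between series, 558 genes were called, 0 with no filter, 82 to 642 with 1 library left out (82 without 8 h replicate 15, 141 without 8 h replicate 13), and 1261 with no fold threshold, which held 2 members (0 with it); Cpt1c ranged from -0.16 to 0.11. Fabp5 alone passed under median-ratio scaling, which left 1 member. The causes of these shifts were not tested. With 2 and 3 libraries a group and Ppara near 1 TPM, small differences of low genes were not detectable. No paired analysis was possible because the groups share no replicate number.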
